A study of Homo sapiens with 15 samples.

Results

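H1975–OR cells kept on osimertinib for 96 h (Samples 4a, 4b, and 4c) were compared with H1975–OR cells kept on vehicle for the same time (Samples 2a, 2b, and 2c). These 6 libraries, chosen by their sample labels, are 6 of the 15 in the RNA sequencing table. H1975 is a human lung adenocarcinoma line with mutant EGFR. H1975–OR is an osimertinib-resistant subline grown from it in 500 nM osimertinib, so it stands for resistance in a single line. The comparison asks which transcripts respond to the drug in cells that already resist it.

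All cells were treated at 0, 48, and 92 h in medium with charcoal-stripped serum and were harvested at 96 h. Vehicle-treated cells received neither agent, and osimertinib-treated cells received 500 nM osimertinib. Because H1975–OR cells were routinely cultured in 500 nM osimertinib, the vehicle arm was also a period of drug withdrawal. Of the other libraries, H1975–OR cells given 100 nM 1,25(OH)2D3 (3b and 3c) or 1,25(OH)2D3 with 500 nM osimertinib (5a, 5b, and 5c) served as a companion comparison of the same drug. The replicates came from separate passages, and their letters were fitted as a block.

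Osimertinib binds mutant EGFR covalently and blocks its kinase. Signaling from EGFR normally runs through RAS and ERK to immediate early transcription factors such as EGR1 and MYC. ERK also induces its own brakes, the DUSP phosphatases, the Sprouty proteins, and ERRFI1, whose transcripts are widely read as a measure of pathway output. EGFR also feeds AKT, which restrains FOXO factors, and growth signals from both routes support ribosome production and entry into the cell cycle.

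The vehicle libraries held from 4724371 to 5240477 estimated counts (median 4950638), and the osimertinib libraries from 4974785 to 5104324 (median 5005561). Mitochondrial transcripts took between 0.746% and 0.774% of counts with vehicle and between 0.671% and 1.04% with osimertinib. Levels below are CPM, the count scaled to a common TMM-adjusted library size, and they are not scaled for gene length. KRT7, KRT8, KRT18, and VIM were abundant in all 6 libraries, at no less than 311 CPM. NKX2-1, a lung lineage factor, lay between 31.6 and 97.6 CPM. The surfactant gene SFTPC did not exceed 4 counts, FOXA2 did not exceed 2, and CDH1 lay between 2.42 and 9.32 CPM, so several markers of differentiated lung epithelium were near absent. Of 10 markers of blood, endothelial, and muscle cells, 2 (CD3E and HBB) had no counts, and the summed level of the list lay between 23.0 and 27.2 CPM with vehicle and between 19.2 and 39.2 CPM with osimertinib.

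Osimertinib raised 23 genes and lowered 12 in H1975–OR cells, of 12503 genes tested, at an adjusted p under 0.05 (edgeR's quasi-likelihood test, Benjamini-Hochberg adjustment). That is 0.28% of tested genes, 0.184% higher and 0.096% lower. The genes that rose included SLC44A2, SLC43A2, GPNMB, and GRN. The genes that fell included RGS4, ANPEP, TM4SF1, and the EGFR inhibitor ERRFI1. The median log2 fold change of all tested genes was 0.0038. The call is sensitive to the design: without the replicate block 6 genes passed, 4 higher and 2 lower. In the 6 libraries alone with the block none passed, with 1363 at an unadjusted p under 0.05, and without it 2 did. Leaving out Sample 2a gave 371 genes, 202 higher and 169 lower, and leaving out any of the other 5 libraries gave at most 1. All 35 genes kept their direction under each of these settings, and with the block each also kept an unadjusted p under 0.05, although their adjusted p was mostly above the threshold. Over all tested genes, 1712 had an unadjusted p under 0.05 in the fit used and 941 did without the block. With 3a kept in there were 1157, and without 2a there were 2132. Leaving out 2b, 2c, 4a, 4b, or 4c gave 1183, 1237, 1690, 1113, and 1196. Counts of list members under a setting are to be read beside the count of all genes. Adjusted p values below are those of the fit over the 11 H1975–OR libraries other than 3a.

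SLC44A2, a choline transporter-like protein encoded at chr19:10602457-10644557 (GRCh38, plus strand), showed the largest rise among the 35 genes. Its level was 162, 139, and 123 CPM in Samples 2a, 2b, and 2c and 616, 906, and 920 CPM in 4a, 4b, and 4c. The lowest osimertinib library thus stood far above the highest vehicle library. The log2 fold change was 2.5 (SE 0.19, adjusted p = 0.00814). It passed in 9 of 14 alternative settings, with adjusted p between 2.46e-44 and 0.126.

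GPNMB, a glycoprotein of lysosomes and melanosomes at chr7:23235967-23275108, was measured at 71.7, 78.6, and 56.6 CPM with vehicle. With osimertinib it was at 278, 414, and 331 CPM. The 3 treated libraries did not overlap the controls, and the log2 fold change was 2.28 (SE 0.23, adjusted p = 0.0256). GRN, the precursor of lysosomal granulins, rose less, from 417, 468, and 381 CPM to 630, 724, and 527 CPM (log2 fold change 0.57, SE 0.07, adjusted p = 0.0366). RRAGD, a Rag GTPase that recruits mTORC1 to lysosomes, went from 29.0, 12.8, and 10.9 CPM to 74.7, 50.2, and 30.3 CPM. Its groups were separate, though 4c exceeded 2a only narrowly, and the log2 fold change was 1.58 (SE 0.17, adjusted p = 0.0318).

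Amino acid transport and synthesis were represented by 3 genes that rose. SLC43A2, a transporter of large neutral amino acids, was at 43.8, 51.1, and 51.6 CPM with vehicle and 103, 138, and 141 CPM with osimertinib (log2 fold change 1.38, SE 0.13, adjusted p = 0.02). SLC7A5, another carrier of large neutral amino acids, was at 178, 109, and 143 CPM against 305, 209, and 210 CPM. PHGDH, the entry enzyme of serine synthesis, was at 45.6, 37.7, and 41.1 CPM against 79.3, 62.7, and 78.5 CPM. For SLC7A5 and PHGDH the log2 fold changes were 0.76 (SE 0.10) and 0.82 (SE 0.11), both with an adjusted p of 0.0366, and in both genes the groups did not overlap.

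ARRDC3, an arrestin-like adaptor that promotes internalization of surface receptors, was at 224, 164, and 174 CPM with vehicle and at 469, 638, and 646 CPM with osimertinib (log2 fold change 1.62, SE 0.18, adjusted p = 0.0318). ZNF185, an actin-associated LIM protein, was at 17.4, 8.75, and 9.33 CPM and then 72.1, 46.5, and 71.2 CPM (log2 fold change 2.44, SE 0.28, adjusted p = 0.0318). XPO1, the main nuclear export receptor, was at 283, 269, and 265 CPM against 510, 515, and 578 CPM. Its vehicle values lay within a narrow range, and the log2 fold change was 0.97 (SE 0.14, adjusted p = 0.0435). CRYAB, a small heat shock protein, varied widely with the letter, at 18.8, 9.36, and 2.67 CPM with vehicle and 77.2, 38.4, and 22.4 CPM with osimertinib. Within each letter the treated library was higher, and the log2 fold change was 2.26 (SE 0.28, adjusted p = 0.0366). TNFRSF1A, the type 1 receptor for tumor necrosis factor, was at 13.2, 7.73, and 16.2 CPM against 33.0, 64.7, and 66.0 CPM (log2 fold change 2.10, SE 0.28, adjusted p = 0.0366).

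**Figure D1:**
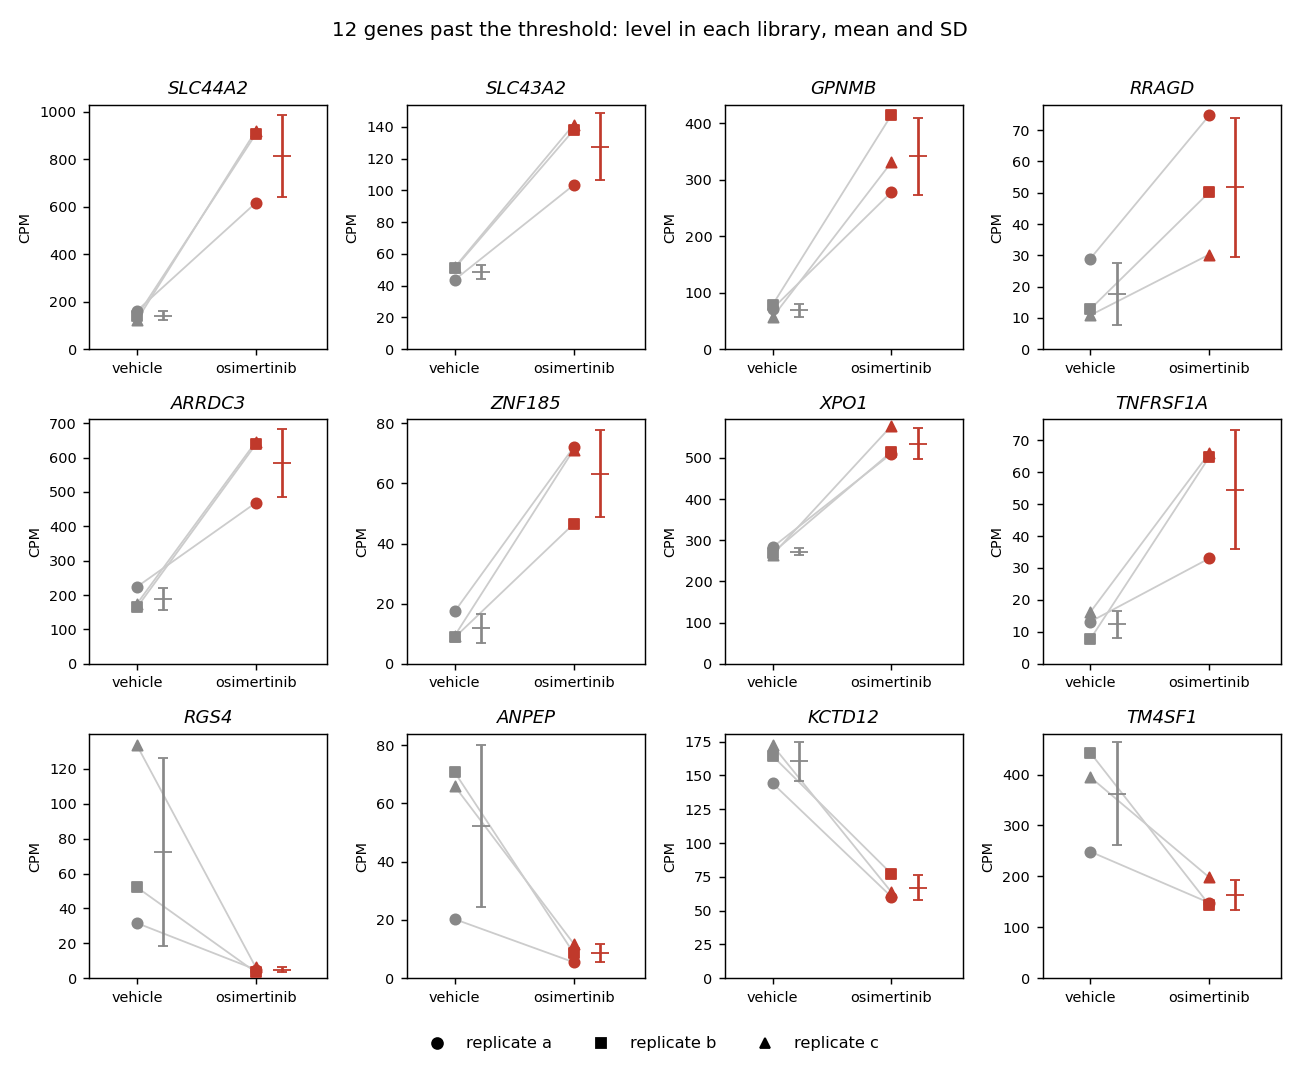
Level of 12 genes with an adjusted p under 0.05 in each library (CPM, linear axis from 0), with vehicle in gray and osimertinib in red; symbols give the replicate letter, gray lines join libraries of the same letter, and the bars to the right are mean and SD (n = 3). No osimertinib library overlaps the vehicle libraries in any of the 12 genes; SLC44A2 rises from at most 162 to at least 616 CPM.

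Other genes that rose, with log2 fold changes between 0.70 and 1.68, were ID2, an inhibitor of basic helix-loop-helix factors (0.86), TRIM22, an interferon-inducible ubiquitin ligase (1.5), the calpain protease gene CAPN5 (1.05), the hexokinase-related gene HKDC1 (1.68), the Wnt ligand gene WNT9A (1.25), the mitotic spindle gene NUSAP1 (0.81), MAGED2 (0.70), PRRG4 (1.42), TMEM106C (1.28), and C5orf34 (1.26). WNT9A lies outside the naming rule and was named after its value was seen. Of these, HKDC1, MAGED2, and WNT9A overlapped between groups. HKDC1 was at 26.7 CPM in 2a and 98.6 CPM in 4a but between 3.24 and 10.5 CPM in the other 4 libraries.

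RGS4, which speeds the shutdown of G protein signals, showed the largest fall among the 35 genes. It is encoded at chr1:163068775-163076802 and was at 31.6, 52.1, and 133 CPM with vehicle and 4.93, 3.44, and 6.25 CPM with osimertinib. The vehicle libraries differed among themselves, yet the lowest of them was above every treated library. The log2 fold change was -3.71 (SE 0.38, adjusted p = 0.0256). ANPEP, the membrane aminopeptidase CD13, was at 20.3, 70.6, and 65.9 CPM against 5.50, 8.70, and 11.9 CPM (log2 fold change -2.49, SE 0.31, adjusted p = 0.0366). KCTD12, an auxiliary subunit of GABA-B receptors, was at 144, 164, and 172 CPM against 60.3, 77.3, and 63.7 CPM (log2 fold change -1.26, SE 0.16, adjusted p = 0.0366).

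TM4SF1, a tetraspan surface protein common in carcinomas, was at 249, 443, and 395 CPM with vehicle and 148, 144, and 198 CPM with osimertinib (log2 fold change -1.12, SE 0.16, adjusted p = 0.0407). STC1, the secreted glycoprotein stanniocalcin, was at 56.9, 29.7, and 33.5 CPM against 26.7, 7.28, and 9.88 CPM (log2 fold change -1.62, SE 0.24, adjusted p = 0.0435). MGP, a secreted inhibitor of calcification, was at 75.3, 68.6, and 61.7 CPM against 30.1, 34.8, and 34.9 CPM (log2 fold change -1.04, SE 0.14, adjusted p = 0.0366). In all 3 genes no library of one group fell within the range of the other. CDKN1C, the CDK inhibitor p57, was at 26.9, 60.0, and 71.6 CPM against 15, 27.3, and 35.1 CPM, lower within each letter but overlapping across letters (log2 fold change -1.01, SE 0.15, adjusted p = 0.0435). The remaining genes that fell were the transcription factor MYBL1 (log2 fold change -0.80), the serine protease gene PRSS23 (-0.46), MALL (-0.98), and ENDOD1 (-0.67). Of all 35 genes that passed, 29 had no overlap between the 3 osimertinib and 3 vehicle libraries. Among all tested genes, 6.19% were higher and 6.71% lower without overlap.

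Among the genes that report on EGFR and ERK, most lay lower with osimertinib, but a single one passed the threshold. Gene lists and their members were chosen with earlier results of these data known. Shares of a list set beside all tested genes, here and below, are thus descriptions and not a test. The list of ERK phosphatases, Sprouty, and SPRED inhibitors had 17 tested members of 19, and the others did not exceed 9 counts in any of the 6 libraries. ERRFI1 fell, and the median log2 fold change of the list was -0.44. At an unadjusted p under 0.05, 7 members (41.2%) were lower and 2 (11.8%) higher, beside 6.65% and 7.05% of all tested genes. ERRFI1, a feedback inhibitor that binds the EGFR kinase domain, is encoded at chr1:8004404-8026309. It was at 201, 313, and 437 CPM with vehicle and 123, 106, and 123 CPM with osimertinib, a log2 fold change of -1.38 (SE 0.20, adjusted p = 0.0435). The drug-treated libraries were alike, and the vehicle libraries were spread.

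The ERK phosphatases DUSP5 and DUSP6 did not pass. DUSP5 was at 21.3, 22.2, and 18.5 CPM against 10.4, 5.86, and 6.05 CPM (log2 fold change -1.52, SE 0.25, adjusted p = 0.058). DUSP6 was at 3.85, 18.3, and 27.2 CPM against 4.55, 4.04, and 9.08 CPM (log2 fold change -1.27, SE 0.45, adjusted p = 0.267). Its vehicle level in Sample 2a was thus below every treated library. The Sprouty gene SPRY4 also had its lowest vehicle level in Sample 2a, at 3.85, 19.3, and 46.3 CPM against 2.65, 10.3, and 11.9 CPM. It was lower with osimertinib within each letter (log2 fold change -1.24, SE 0.39, adjusted p = 0.214). SPRY2 was at 60.8, 82.0, and 90.4 CPM against 42.1, 58.8, and 63.9 CPM (log2 fold change -0.50, adjusted p = 0.128). DUSP5, SPRY2, and the members of lists named below that neither passed nor belong to the naming rule were chosen after their values were seen.

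Of 30 transcription factors and other genes induced by ERK, 26 were tested, and none passed. Their median was -0.24, with 10 (38.5%) lower and 3 (11.5%) higher at an unadjusted p under 0.05, beside 6.65% and 7.05% of all tested genes. MYC, a driver of growth and ribosome production, was at 723, 446, and 780 CPM against 519, 285, and 386 CPM, lower within each letter (log2 fold change -0.73, SE 0.14, adjusted p = 0.0901). EGR1, an immediate early factor, was at 1.22, 7.73, and 6.28 CPM against 0.758, 0.202, and 0.202 CPM, few counts in every library (log2 fold change -3.62, SE 1.12, adjusted p = 0.201). PHLDA1, an apoptosis-related target of ERK, was at 44, 43.2, and 61.5 CPM against 34.7, 21.6, and 24.8 CPM (adjusted p = 0.199). CCND1, cyclin D1, was at 261, 899, and 967 CPM against 262, 490, and 554 CPM (log2 fold change -0.58, SE 0.18, adjusted p = 0.216). In letters b and c it was lower with the drug, and in letter a the levels were nearly equal. ETV5, a transcription factor of the ETS family induced by ERK, was at 48.4, 117, and 107 CPM against 42.3, 90.0, and 117 CPM (adjusted p = 0.597).

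The replicate letters differed in these lists. Within letters a, b, and c, the median log2 difference was -0.19, -0.32, and -0.50 for the ERK phosphatase and Sprouty list and -0.05, -0.40, and -0.44 for the ERK-induced list. Without Sample 2a, 3 genes of the first list passed, all lower, and its median was -0.54. Of the second list, 7 passed lower and 1 higher without it, with 13 lower at an unadjusted p under 0.05 and a median of -0.40. Without the block, 4 members of the first list and 6 of the second were lower at an unadjusted p under 0.05, and none passed. Without 2c or 4c, 3 members of the first list and 6 of the second were lower at an unadjusted p under 0.05, and without 2b or 4b 6 of the second were. What sets the letter a libraries apart was not tested.

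**Figure D2:**
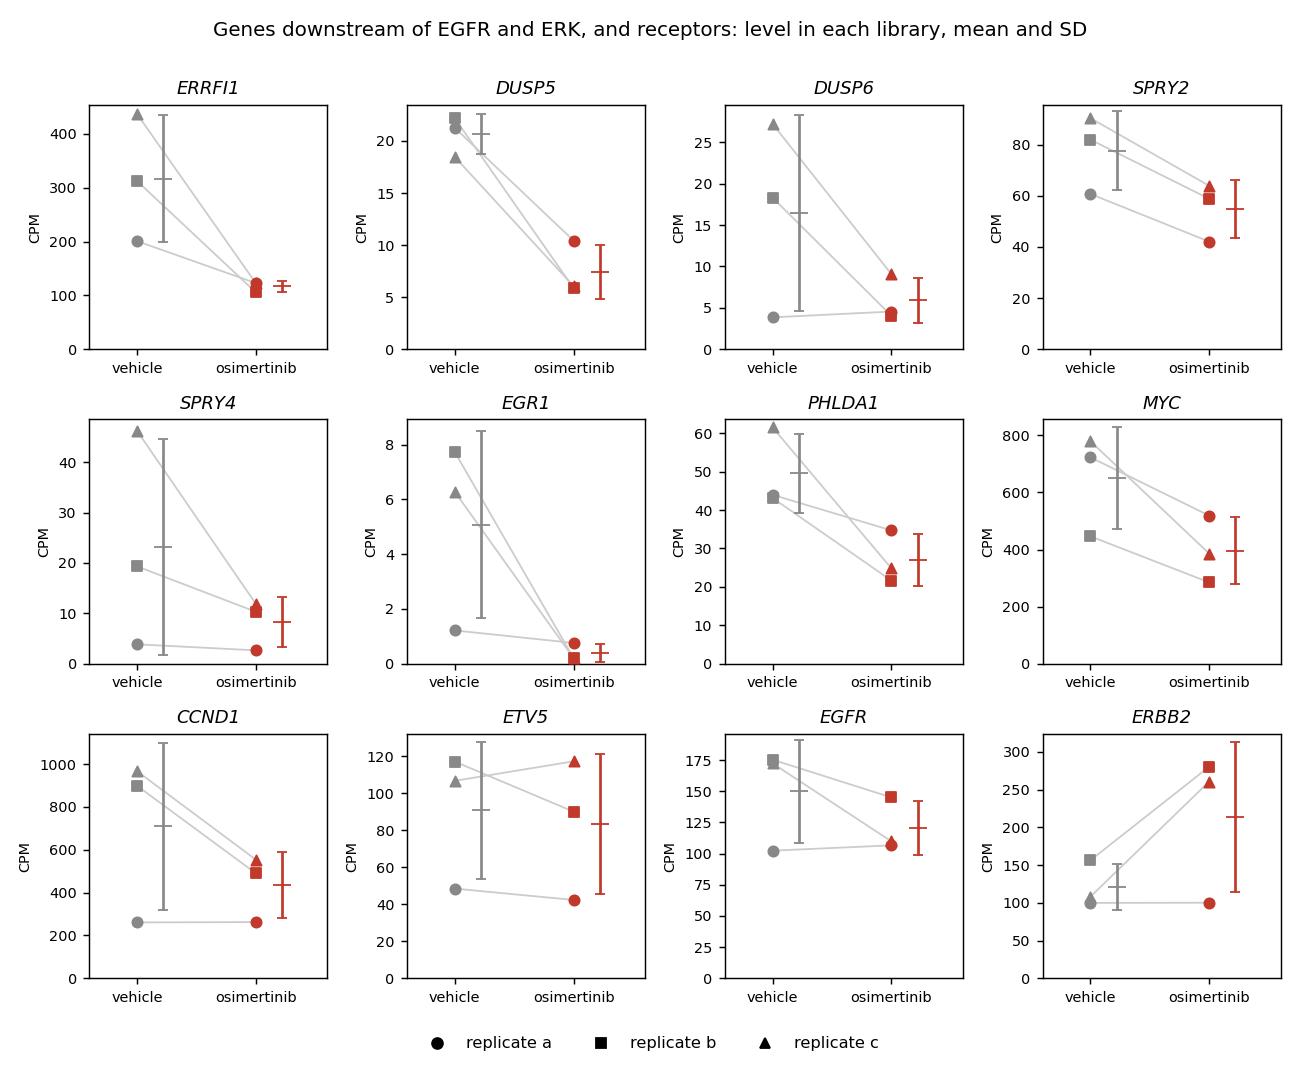
Level of 12 genes of the EGFR and ERK pathway in each library (CPM, linear axis from 0), with vehicle in gray, osimertinib in red, lines joining libraries of the same letter, and mean with SD (n = 3) to the right. ERRFI1, DUSP5, SPRY2, SPRY4, EGR1, PHLDA1, and MYC are lower in all 3 pairs. DUSP6, SPRY4, and CCND1 start low in the vehicle library of letter a (3.85, 3.85, and 261 CPM).

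Of the receptors and ligands of the EGFR family, 10 of 15 were tested and none passed, and the other 5 did not exceed 5 counts. EGFR itself was at 102, 175, and 172 CPM with vehicle and 107, 145, and 110 CPM with osimertinib (log2 fold change -0.31, SE 0.19, adjusted p = 0.531). ERBB2, its dimerization partner, was at 99.9, 156, and 108 CPM against 100, 280, and 261 CPM (log2 fold change 0.71, SE 0.20, adjusted p = 0.19), with osimertinib higher in letters b and c and nearly equal in letter a. ERBB3 had few counts, at no more than 3.41 CPM (adjusted p = 0.895). HBEGF, an EGFR ligand, was at 128, 177, and 302 CPM against 98, 174, and 214 CPM (adjusted p = 0.231). Of 36 other receptor tyrosine kinases and ligands, 26 were tested, with a median of 0.05 and none past the threshold. MET was at 347, 153, and 149 CPM against 387, 176, and 129 CPM, and AXL, a kinase linked to bypass signaling, at 173, 147, and 140 CPM against 155, 154, and 164 CPM. The groups overlapped in both genes (adjusted p = 0.875 and 0.87).

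Genes of mitosis lay higher with osimertinib. Of the 51 G2/M phase genes tested, 46 had a positive log2 fold change, with a median of 0.54. At an unadjusted p under 0.05, 26 (51.0%) were higher and none was lower, beside 7.05% and 6.65% of all tested genes. NUSAP1 was the member that passed. The median difference within the letters was 0.21, 0.72, and 0.55. Without the block, 11 members were higher at an unadjusted p under 0.05, with a median of 0.51. Over all tested genes 941 then reached that level in either direction, against 1712 with the block. The count of higher members was 15 without Sample 2c or 4b and 17 without 2b. Without Sample 2a, 5 members passed, all higher, among 202 genes that passed higher.

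NUSAP1, which bundles spindle microtubules (chr15:41320794-41381050), was at 71.5, 45.8, and 49.7 CPM with vehicle and 111, 91.8, and 86.3 CPM with osimertinib. All treated libraries were above the controls, with a log2 fold change of 0.81 (SE 0.11, adjusted p = 0.0366). MKI67, the Ki-67 proliferation antigen, was at 87.5, 56.0, and 41.9 CPM against 117, 194, and 84.9 CPM (log2 fold change 1.11, SE 0.25, adjusted p = 0.12). HMGB2, a chromatin protein abundant in dividing cells, was at 83.5, 38.5, and 47.6 CPM against 136, 133, and 134 CPM (log2 fold change 1.30, adjusted p = 0.0793). CDK1, the mitotic kinase, was at 65.0, 28.5, and 36.8 CPM against 85.5, 64.7, and 60.3 CPM (log2 fold change 0.75, adjusted p = 0.123). SMC4, a condensin subunit, was at 25.9, 17.9, and 26.7 CPM against 59.5, 31.1, and 43.8 CPM (log2 fold change 0.90, adjusted p = 0.107). ANLN, a scaffold of the cleavage furrow, was at 348, 175, and 186 CPM against 444, 319, and 278 CPM (log2 fold change 0.59, adjusted p = 0.108).

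G2/M promoters often hold the cell cycle homology region (CHR), searched as TTTGAA on both strands. RefSeq promoters of 300 bases (GRCh38.p14), 250 before to 50 after each start, were found for 43 of the 51 genes. Of these, 29 (67.4%) held the motif, beside 9.67% of the 9714 promoters matched to tested genes and 15.4% of all 27305 in the table. The promoters of the 3 members with the smallest p among those with a match are shown 5′ to 3′, with the motif or its reverse complement in capitals. They lie at chr15:41332631-41332930, plus strand (NUSAP1), chr3:160399400-160399699, plus strand (SMC4), and chr7:36389612-36389911, plus strand (ANLN). ANLN holds the motif on both strands, side by side. A match describes the sequence and is not evidence of binding.
NUSAP1: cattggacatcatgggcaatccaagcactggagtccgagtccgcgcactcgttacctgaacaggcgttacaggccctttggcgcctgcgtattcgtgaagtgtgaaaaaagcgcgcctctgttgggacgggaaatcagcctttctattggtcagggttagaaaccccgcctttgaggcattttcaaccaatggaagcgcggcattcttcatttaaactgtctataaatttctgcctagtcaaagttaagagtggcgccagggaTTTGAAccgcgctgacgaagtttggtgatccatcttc
SMC4: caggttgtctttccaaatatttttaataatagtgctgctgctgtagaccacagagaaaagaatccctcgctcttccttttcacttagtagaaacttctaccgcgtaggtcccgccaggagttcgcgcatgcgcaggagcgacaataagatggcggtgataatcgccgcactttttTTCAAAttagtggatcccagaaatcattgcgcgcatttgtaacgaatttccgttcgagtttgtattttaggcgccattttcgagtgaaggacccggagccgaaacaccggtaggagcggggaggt
ANLN: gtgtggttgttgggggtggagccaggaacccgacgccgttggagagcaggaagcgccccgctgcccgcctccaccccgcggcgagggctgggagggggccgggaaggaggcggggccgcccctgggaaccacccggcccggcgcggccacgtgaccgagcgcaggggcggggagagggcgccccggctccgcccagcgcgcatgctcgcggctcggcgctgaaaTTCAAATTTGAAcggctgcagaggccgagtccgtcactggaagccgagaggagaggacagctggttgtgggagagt

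All 43 S phase genes were tested, with a median of 0.15. At an unadjusted p under 0.05, 2 (4.65%) were higher and 3 (6.98%) lower, beside 7.05% and 6.65% of all tested genes. Histone genes, most of which are transcribed in S phase, lay higher: 61 of the 64 tested of 70 had a positive log2 fold change, the median was 0.34, and 26 (40.6%) were higher and none lower at an unadjusted p under 0.05. None passed the adjusted threshold. Without the block the count of higher members was 10, without Sample 2a it was 16, without 4b 14, and without 4c 17. HIST1H3B was at 76.2, 40.5, and 43.8 CPM against 99.0, 82.9, and 74.6 CPM (log2 fold change 0.72, adjusted p = 0.0958), and HIST1H4D at 34, 29.3, and 30.7 CPM against 50.8, 46.3, and 41.3 CPM (log2 fold change 0.56, adjusted p = 0.108). Histone genes are near-identical copies, HIST2H3A and HIST2H3C had the same values in every library, and the split of reads between copies is uncertain. The library protocol was for total RNA, which keeps transcripts without a poly(A) tail.

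Among G1 cyclins, their kinases, and inhibitors, all 28 were tested and CDKN1C fell. At an unadjusted p under 0.05, 6 (21.4%) were higher and 3 (10.7%) lower, beside 7.05% and 6.65% of all tested genes. Without the block these counts were 2 and 1. Without Sample 2a, 2 members passed higher and 2 lower. CCNG2, a cyclin induced by FOXO factors, was at 23.7, 23.0, and 15 CPM against 37.7, 64.1, and 45.2 CPM, without overlap (log2 fold change 1.24, SE 0.19, adjusted p = 0.0527). CDKN1B, the inhibitor p27 and a FOXO target, was at 87.1, 93.2, and 75.8 CPM against 87.8, 91.4, and 109 CPM (adjusted p = 0.624). The 21 tested FOXO-induced genes had a median of 0.17, with 3 (14.3%) higher and 3 (14.3%) lower at an unadjusted p under 0.05. None of them passed, and without Sample 2a 2 passed higher and 1 lower.

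Ribosome assembly genes, a MYC-responsive group of nucleolar factors that process ribosomal RNA, lay lower as a group. The list was written with earlier results of these data known, so its shares describe it and are not a test. All 30 were tested, and 27 had a negative log2 fold change, with a median of -0.40. At an unadjusted p under 0.05, 18 (60.0%) were lower and none higher, beside 6.65% and 7.05% of all tested genes. Without overlap, 12 (40.0%) were lower, beside 6.71% of all tested genes. None passed the adjusted threshold, but without Sample 2a 8 did, all lower. The medians within the letters were -0.15, -0.54, and -0.52, and without the block or without Sample 4b 12 members were lower at an unadjusted p under 0.05. NIP7 was at 110, 124, and 145 CPM against 85.5, 84.5, and 101 CPM (log2 fold change -0.48, SE 0.09, adjusted p = 0.0874). RRP9, a subunit of the U3 small nucleolar ribonucleoprotein, was at 52.5, 50.3, and 54.5 CPM against 41.5, 27.1, and 28.6 CPM (log2 fold change -0.72, adjusted p = 0.107). RRS1 was at 45.6, 56.2, and 59.6 CPM against 36, 19.8, and 34.1 CPM (log2 fold change -0.88, adjusted p = 0.123). UTP20 and WDR43, of the small subunit processome, had log2 fold changes of -0.42 each (adjusted p = 0.107 and 0.114). The nucleolar proteins NCL and NPM1, the members with the highest counts, had log2 fold changes of -0.37 and -0.09. The 77 cytosolic ribosomal protein genes had a median of -0.01. At an unadjusted p under 0.05, 2 (2.6%) were higher and 2 (2.6%) lower, beside 7.05% and 6.65% of all tested genes.

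The E-box bound by MYC and related factors, searched as CACGTG, was present in 11 of the 25 ribosome assembly promoters found (44%), beside 10.2% of promoters of tested genes and 7.43% of all promoters. Lysosome and autophagy promoters held it in 7 of 22 (31.8%), and promoters of the genes that passed lower in 0 of 8. Whether MYC acts on these genes was not tested. Other motifs were searched in the same lists and are mostly not shown. The ETS motif (CCGGAAGT) was in 6.67% of ERK phosphatase and Sprouty promoters, beside 9.13% of tested genes. The FOXO motif (GTAAACA) was in 17.6% of FOXO-induced promoters, beside 2.26%. The promoters of RRP9 (chr3:51941855-51942154, minus strand), UTP20 (chr12:101279855-101280154, plus strand), and WDR43 (chr2:28894417-28894716, plus strand) are shown because they are the members with the smallest p that hold the motif, given in capitals. In all 3 it lies close to the transcription start.
RRP9: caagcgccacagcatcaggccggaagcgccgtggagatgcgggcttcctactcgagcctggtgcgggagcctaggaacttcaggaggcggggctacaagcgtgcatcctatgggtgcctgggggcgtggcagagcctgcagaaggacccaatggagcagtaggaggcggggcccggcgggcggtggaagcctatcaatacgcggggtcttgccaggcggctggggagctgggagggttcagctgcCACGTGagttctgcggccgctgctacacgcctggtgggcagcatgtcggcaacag
UTP20: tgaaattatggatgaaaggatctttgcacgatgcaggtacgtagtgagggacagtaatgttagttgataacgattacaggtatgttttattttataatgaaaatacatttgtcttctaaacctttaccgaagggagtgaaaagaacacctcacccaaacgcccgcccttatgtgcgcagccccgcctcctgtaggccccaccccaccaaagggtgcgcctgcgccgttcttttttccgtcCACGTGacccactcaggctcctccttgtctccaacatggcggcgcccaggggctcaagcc
WDR43: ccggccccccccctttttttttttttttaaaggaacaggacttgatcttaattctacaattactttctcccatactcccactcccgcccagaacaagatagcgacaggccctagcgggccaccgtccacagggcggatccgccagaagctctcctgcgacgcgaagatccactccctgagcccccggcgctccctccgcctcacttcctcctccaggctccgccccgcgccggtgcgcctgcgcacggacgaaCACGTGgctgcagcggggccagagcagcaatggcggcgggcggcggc

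ATF4 targets, the genes of amino acid synthesis and import that the integrated stress response induces, lay higher. Of 26 tested members of 27, PHGDH and SLC7A5 rose, and the median log2 fold change was 0.39. At an unadjusted p under 0.05, 11 (42.3%) were higher and 2 (7.69%) lower, beside 7.05% and 6.65% of all tested genes. Without overlap, 11 were higher, beside 6.19% of all tested genes. The median within the letters was 0.34, 0.49, and 0.47, and 7 members were higher at that level without Sample 2c. NUPR1, a stress-induced nuclear protein, was at 34.8, 37.9, and 42.1 CPM against 60.3, 64.3, and 62.5 CPM (log2 fold change 0.71, SE 0.13, adjusted p = 0.082). SLC3A2, the heavy chain that pairs with SLC7A5, was at 96.8, 59.2, and 62.3 CPM against 156, 106, and 133 CPM (log2 fold change 0.86, adjusted p = 0.163). ASNS, asparagine synthetase, was at 81.0, 52.7, and 46.7 CPM against 116, 60.3, and 68.0 CPM (adjusted p = 0.198). DDIT3, the factor CHOP, was at 17.8, 17.1, and 13.9 CPM against 25.4, 24.1, and 26.6 CPM (adjusted p = 0.2). Chaperones of the endoplasmic reticulum, which the neighboring unfolded protein response induces, had a median of -0.14 over 18 tested genes.

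The median of the 33 tested lysosome and autophagy genes was 0.12, and none passed the threshold. Among them, 6 (18.2%) were higher and none lower at an unadjusted p under 0.05, beside 7.05% and 6.65% of all tested genes. Without the block, 1 was higher at that level. GPNMB, GRN, and RRAGD, above, are not in that list.

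**Figure D3:**
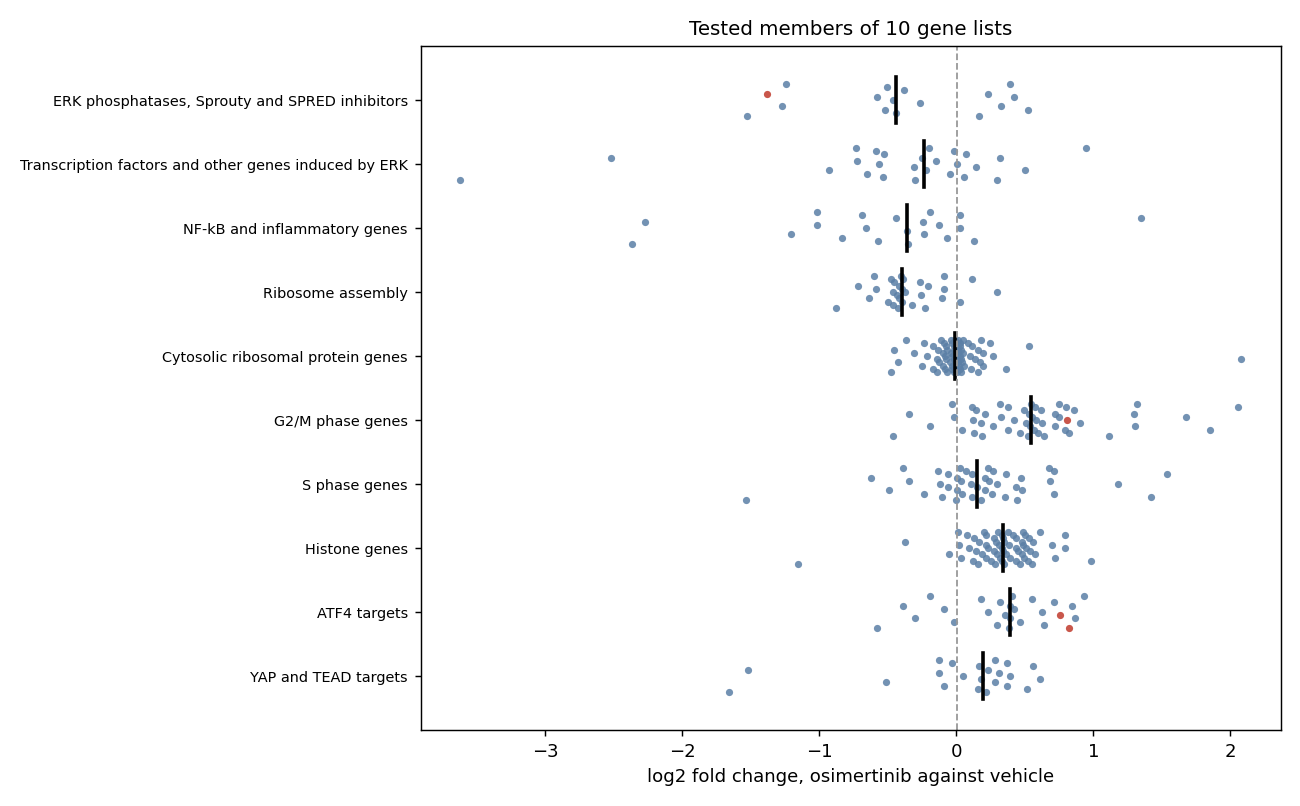
Log2 fold change of every tested member of 10 gene lists, osimertinib against vehicle; each point is a gene, red points passed the adjusted threshold, black bars are list medians, and the dashed line is the median of all tested genes. Medians are lowest for the ERK phosphatase and Sprouty list (-0.44) and ribosome assembly (-0.40) and highest for G2/M phase genes (0.54), with ribosomal protein genes at -0.01.

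Inflammatory genes under NF-kB control lay lower in 17 of 21 tested, with a median of -0.36. None passed, and 5 (23.8%) were lower and none higher at an unadjusted p under 0.05, beside 6.65% and 7.05% of all tested genes. The lower members numbered 2 without Sample 2c and 3 without 4c. Without Sample 2a, 2 passed, both lower. PTGS2, the inducible cyclooxygenase, was at 9.92, 68.0, and 181 CPM against 1.33, 19.2, and 27.0 CPM, lower within each letter (log2 fold change -2.37, SE 0.38, adjusted p = 0.055). CXCL8, the chemokine interleukin-8, was at 18.8, 13.0, and 71.6 CPM against 4.93, 4.65, and 9.08 CPM (log2 fold change -2.27, adjusted p = 0.123). IL6 was at 8.30, 5.09, and 9.90 CPM against 4.93, 2.02, and 3.43 CPM (log2 fold change -1.20, adjusted p = 0.237).

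YAP and TEAD targets had a median of 0.20 over 22 tested genes. Among them, 8 (36.4%) were higher and 1 (4.55%) lower at an unadjusted p under 0.05, beside 7.05% and 6.65% of all tested genes. ANKRD1, a transcript much used as a YAP readout, was at 364, 340, and 419 CPM against 495, 611, and 611 CPM (log2 fold change 0.61, SE 0.09, adjusted p = 0.0527). The median of this list within letters was 0.02, 0.46, and 0.12, and the higher members numbered 4 without Sample 2b, 3 without 4b, 4 without 4c, and 2 with 3a kept in. None passed, and without Sample 2a 4 passed higher and 1 lower.

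Of 23 tested epithelial genes the median was -0.02, and of 29 mesenchymal genes it was -0.06, with none past the threshold in either list. At an unadjusted p under 0.05, 1 epithelial gene (4.35%) was higher and 3 (13%) were lower, and 6 mesenchymal genes (20.7%) were higher and 2 (6.9%) lower, beside 7.05% and 6.65% of all tested genes. Without the block, 2 mesenchymal genes were higher at that level. Without Sample 2a, 1 epithelial gene passed higher and 2 lower, and 2 mesenchymal genes passed, both higher. With a library left out the medians ranged from -0.12 to 0.05 and from -0.05 to 0.13. CDH1, E-cadherin, was at 9.32, 6.11, and 5.14 CPM against 6.64, 4.85, and 2.42 CPM (adjusted p = 0.393). KRT19 was at 208, 412, and 387 CPM against 164, 125, and 116 CPM (log2 fold change -1.34, adjusted p = 0.137). VIM, vimentin, was at 2882, 3864, and 4140 CPM against 2905, 3302, and 3861 CPM (adjusted p = 0.534). LOXL2, which cross-links collagen, was at 320, 239, and 213 CPM against 429, 405, and 328 CPM (log2 fold change 0.61, adjusted p = 0.0665). Of the mesenchymal list, 14 log2 fold changes were positive and 15 negative. The mesenchymal marker ZEB1 had a mean of 30.3 CPM with vehicle and 13.4 CPM with osimertinib, and FN1 had means of 55.5 and 77.3 CPM. CDH2 did not exceed 3 counts.

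Apoptosis regulators of the BCL2 family included 13 tested genes, none past the threshold (1 higher without Sample 2a). Their median was -0.13, with 5 log2 fold changes positive and 8 negative. Among them, 3 (23.1%) were higher and 1 (7.69%) lower at an unadjusted p under 0.05, beside 7.05% and 6.65% of all tested genes. Without the block, 1 was higher and 1 lower. BCL2L11 (BIM), which EGFR inhibitors induce in sensitive cells, was at 10.9, 8.35, and 16.8 CPM against 11.8, 21.0, and 13.5 CPM (log2 fold change 0.32, SE 0.36, adjusted p = 0.751). BMF, another BH3-only member, was at 22.1, 20.2, and 12.2 CPM against 30.7, 112, and 63.7 CPM (log2 fold change 1.71, SE 0.42, adjusted p = 0.141). MCL1 was at 455, 374, and 462 CPM against 406, 393, and 376 CPM. Among drug efflux pumps and aldehyde dehydrogenases, 11 of 15 were tested and none passed (1 lower without Sample 2a). The median of the 11 was -0.02, with 5 log2 fold changes positive and 6 negative. None was higher and 3 (27.3%) were lower at an unadjusted p under 0.05, beside 7.05% and 6.65% of all tested genes. Without the block, 2 were lower. ABCC4, an efflux pump of organic anions, was at 83.2, 74.3, and 76.4 CPM against 61.2, 47.7, and 45.8 CPM, without overlap (log2 fold change -0.60, SE 0.10, adjusted p = 0.058). ABCG2 was at 18.2, 16.7, and 21.1 CPM against 11.2, 8.29, and 8.47 CPM (log2 fold change -1.02, adjusted p = 0.141).

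In the other lists, none of the tested members passed. Of the 16 vitamin D receptor targets, 5 (31.2%) were lower and 2 (12.5%) higher at an unadjusted p under 0.05. The shares of all tested genes were 6.65% and 7.05%. Without Sample 4c, 1 of these targets was lower and 1 higher at that level. Without Sample 2a, 2 cholesterol genes and 1 lung identity gene passed higher, and 1 glycolysis gene, 2 interferon-stimulated or antigen presentation genes, and 1 vitamin D receptor target passed lower. The medians were 0.09 for 25 cholesterol genes, -0.01 for 12 fatty acid genes, -0.06 for 23 genes of glycolysis, -0.07 for 36 interferon-stimulated and antigen presentation genes, -0.02 for 23 NRF2 targets, and -0.18 for 16 vitamin D receptor targets. Those of 13 mitochondrial mRNAs and 9 lung identity genes were 0.12 and 0.17, and both rested on single libraries. The first was -0.18 without Sample 2a and 0.51 without 2c, and the second was 0.014 without 2c and 0.47 without 4a. AGER, a marker of type 1 alveolar cells, was at 1.82, 2.24, and 1.14 CPM against 4.36, 12.9, and 15.9 CPM (log2 fold change 2.52, SE 0.53, adjusted p = 0.107). The marker list of other cell types had 6 tested genes and a median of 0.21, between -0.24 and 0.58 with a library left out.

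**Figure D4:**
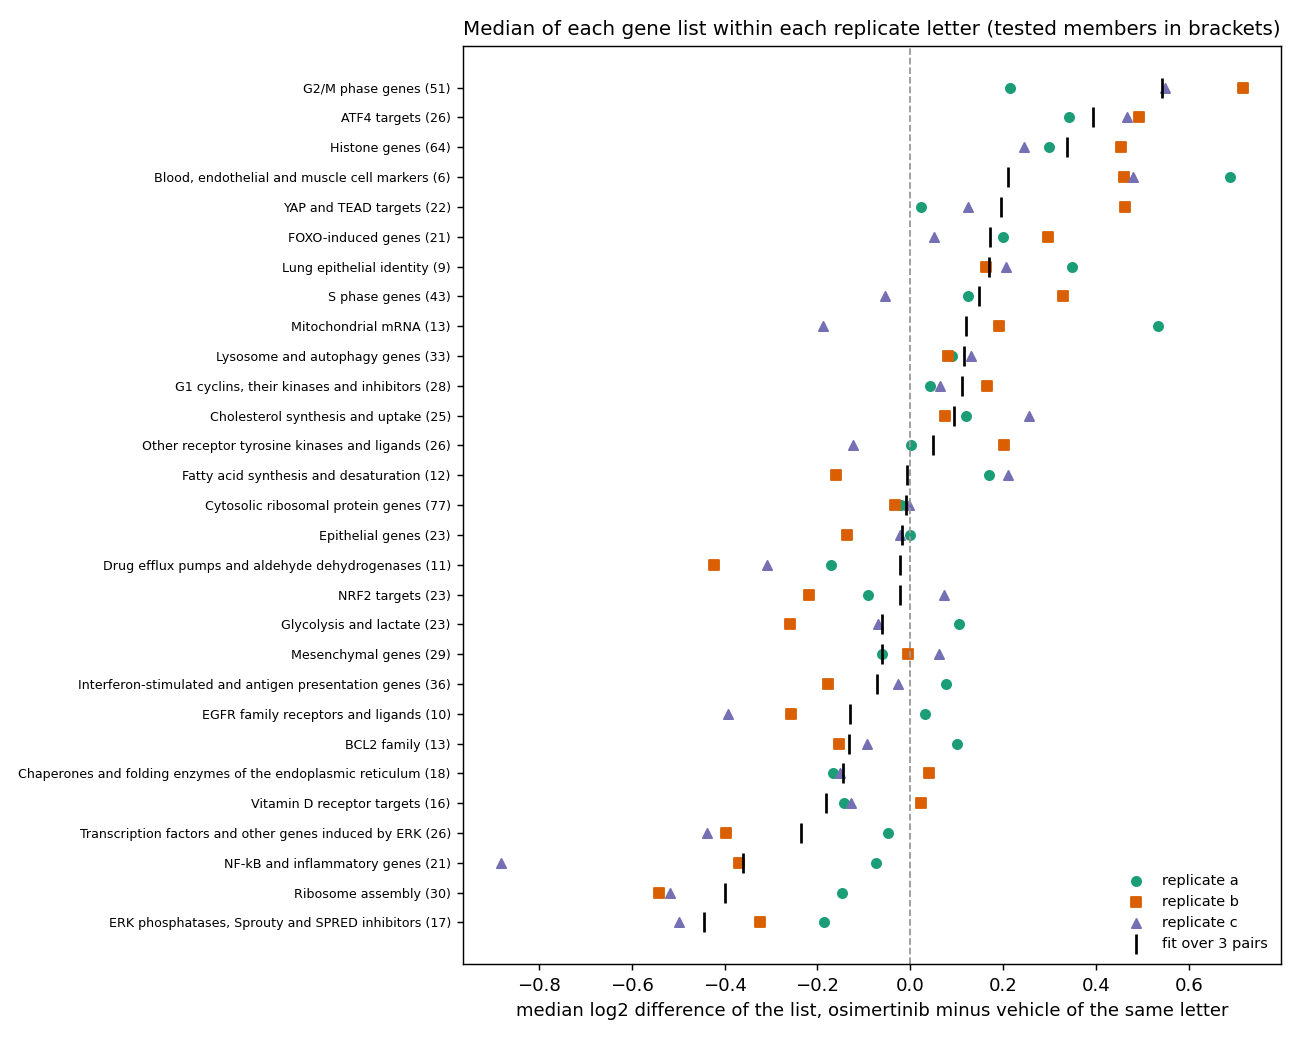
Median log2 difference of each gene list between osimertinib and vehicle within replicate letters a, b, and c (colored symbols, from log2 CPM with a prior count of 2), with the median of the fitted log2 fold changes as a black bar and the number of tested members in brackets. For G2/M phase genes the letters gave 0.21, 0.72, and 0.55, and for ribosome assembly -0.15, -0.54, and -0.52.

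The same drug was also measured on top of 1,25(OH)2D3, in libraries that are not among the 6 above. In that comparison (5a, 5b, and 5c against 3b and 3c), 102 genes rose (0.816% of those tested) and 81 fell (0.648%). Without the block 15 rose and 17 fell, and leaving out 1 library gave between 2 genes (without 3b) and 65 (without 5a). The 2 comparisons share no library, but they were fitted together and share the letter terms and the estimate of spread. Of the 35 genes that passed without 1,25(OH)2D3, 34 had the same direction with it, each at an unadjusted p under 0.05, a level that 18.4% of all tested genes reached in either direction. Both comparisons called 24 genes in the same direction, 17 higher and 7 lower, which is 68.6% of the 35 and 13.1% of the 183. The median absolute log2 fold change of the 35 was 1.26 without 1,25(OH)2D3 and 1.24 with it.

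SLC44A2 was at 171 and 140 CPM with 1,25(OH)2D3 and 813, 986, and 1112 CPM with both agents (log2 fold change 2.71, adjusted p = 0.00694). RGS4 was at 48.8 and 95.1 CPM against 2.18, 0.691, and 5.56 CPM (log2 fold change -4.54, adjusted p = 0.00991). ERRFI1 was at 413 and 466 CPM against 115, 149, and 133 CPM (log2 fold change -1.62, adjusted p = 0.0259). TNFRSF1A was the exception: it was already at 81.1 and 104 CPM with 1,25(OH)2D3 and at 43.4, 64.3, and 60.5 CPM with both (log2 fold change -0.56, adjusted p = 0.345). Its levels with both agents thus lay in the range reached with osimertinib alone.

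Group medians with 1,25(OH)2D3 were -0.56 for the ERK phosphatase and Sprouty list, -0.34 for ERK-induced genes, -0.44 for ribosome assembly, 0.41 for G2/M phase genes, 0.20 for histone genes, and 0.37 for ATF4 targets. No gene passed for the difference between the osimertinib effects with and without 1,25(OH)2D3 (edgeR), with 596 (4.77%) at an unadjusted p under 0.05, whereas DESeq2 called 24. With so few libraries this does not show that the effects are alike. For TNFRSF1A the difference in log2 fold change was -2.66 (SE 0.40, unadjusted p = 0.000145, adjusted p = 0.259).

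**Figure D5:**
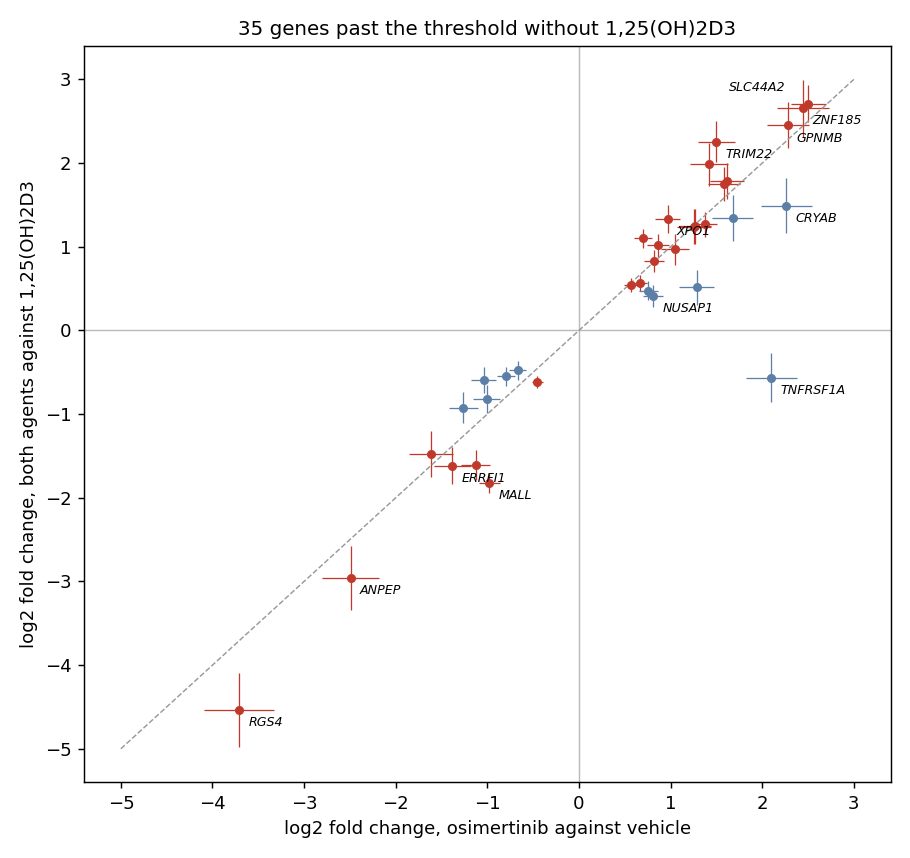
Log2 fold change of the 35 genes past the threshold without 1,25(OH)2D3 (x axis) against the change when osimertinib was added to 1,25(OH)2D3 (y axis); error bars are SE, red points also passed in the second comparison, and the dashed line marks equal change. TNFRSF1A is the single gene with opposite signs, at 2.10 and -0.56.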

How the data were processed

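RNA was sequenced by the authors from stranded total RNA libraries depleted of ribosomal RNA, as paired-end reads, and assigned to hg38 transcripts with Kallisto and summed to genes with tximport. The submitters' processing notes name CASAVA 1.8.2, STAR 2.5.2b, and kallisto 0.43.0 without their roles. The authors deposited an estimated count for each of 19612 gene symbols in 15 libraries, with no scaling. From the paper's description, the counts are taken to come from the Kallisto step. They were rounded to whole counts here.

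Genes were kept with edgeR's filterByExpr by group (minimum count 10, minimum total 15), scaled by TMM, and tested with edgeR 4.0.16 (R 4.3.3), by the quasi-likelihood test, two-sided, with Benjamini-Hochberg adjustment and a threshold of 0.05. The fit held 11 H1975–OR libraries, with group and replicate letter as terms, leaving 5 residual degrees of freedom. Sample 3a was left out, as in the study. The script was tested on simulated data. Libraries of about 5005561 counts (the osimertinib median) limit the precision for low genes. The SD covers the spread between passages. The SE comes from the fit over 11 libraries, in which the letter terms take up differences in level between passages.

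Letters paired vehicle and osimertinib libraries only partly: the correlations of deviations for letters a, b, and c were 0.255, 0.0889, and 0.162, and a minimum of 0.1 was set for each, so the block rests on the comparison's definition. The alternatives were RLE, no filter, at least 10 counts in every library, DESeq2 1.42.0, no block, Sample 3a kept in, the 6 libraries alone, and leaving out each library.

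Gene lists were written from general knowledge, apart from the S and G2/M genes of Seurat 5.3.0, and members and lists were chosen with earlier results of these data known. Named genes were up to 15 rises and 15 falls with at least 50 scaled counts and no overlap, the 10 smallest p besides, list members (those called, or the 2 with the highest counts in a list without a call), 15 genes fixed by name, and the 10 smallest p for the difference between osimertinib effects. Gene positions are from GENCODE release 44 (GRCh38), matched by symbol for 94 of 102 named genes. Some genes, including 1 that passed the threshold, are not reported here by name.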

Additional observations from a re-analysis of the deposited data

How the results depend on the processing

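The 35 genes that passed for osimertinib against vehicle in H1975–OR cells became 63 with at least 10 counts in every library, 319 with DESeq2, 6 with no replicate block, 8 with Sample 3a kept in, 0 in the 6 libraries alone with the replicate block (1363 at an unadjusted p under 0.05, edgeR), and 2 in those without it. Leaving out single libraries gave between 0 and 371, the highest without Sample 2a. For osimertinib added to 1,25(OH)2D3, 183 genes became 322 with at least 10 counts in every library, 616 with DESeq2, 32 with no replicate block, and 40 with Sample 3a kept in, and between 2 and 65 with a library left out. For the difference between both osimertinib effects, 0 became 2 with no filter, 2 with at least 10 counts in every library, and 24 with DESeq2, and between 0 and 2 with a library left out. RLE size factors gave 35, 182, and 0. The cause of these shifts was not tested. Every called gene kept its sign in every setting in which it was tested. Among the other genes followed across the settings, the signs of 4 turned. Over all settings, log2 fold changes ranged from -0.348 to 2.18 for ERBB3 and from -0.0417 to 0.128 for AXL. They ranged from -0.0138 to 0.161 for MET and from -0.0536 to 0.770 for BCL2L11. The block was not required by the pairing check (each library correlated best with its own letter, as a hint from the data). Libraries held about 5005561 counts (the osimertinib median), and the part of depth in the number of calls was not tested.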

Other observations

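Copies of the MTRNR2L family, short nuclear genes nearly identical to mitochondrial 16S ribosomal RNA, led the difference between the osimertinib effects with and without 1,25(OH)2D3, and none passed. MTRNR2L8 was at 274, 409, and 566 CPM with vehicle, 412, 488, and 638 CPM with osimertinib, 491 and 466 CPM with 1,25(OH)2D3, and 106, 150, and 170 CPM with both agents. MTRNR2L1 was at 223, 400, and 618 CPM, then 448, 474, and 630 CPM, then 483 and 439 CPM, and then 52.2, 62.2, and 106 CPM. Among the libraries used, the levels with both agents thus lay below those of the other groups (adjusted p for the difference 0.0528 and 0.0712, edgeR), and reads of the copies cannot be told apart. The family took 0.110% of counts in Sample 3a, which was left out, against 0.342% in 3b and 0.308% in 3c. It took 0.0732%, 0.0856%, and 0.0963% in 5a, 5b, and 5c, so the separation from 1,25(OH)2D3 alone rests on 3b and 3c.

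STK11IP was listed at 0 in all 3 vehicle libraries and at 9.29, 10.9, and 7.66 CPM with osimertinib (adjusted p = 0.0665), and at 13.8 and 0.918 CPM with 1,25(OH)2D3. ELF3, an epithelial transcription factor, was at 13.0, 16.1, and 11.4 CPM with vehicle and 20.3, 26.9, and 18.2 CPM with osimertinib (log2 fold change 0.68, adjusted p = 0.123). On top of 1,25(OH)2D3 it was at 9.98 and 5.69 CPM without osimertinib and 30.7, 38.5, and 23.6 CPM with it (log2 fold change 2.02, adjusted p = 0.00991). The difference between the changes did not pass (adjusted p = 0.733).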
